A study of Apostichopus japonicus with 9 samples.

Results

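The miRNA profile of the normoxic respiratory tree is described here for a sea cucumber, Apostichopus japonicus, from the 3 control libraries of the study, DO8_1, DO8_2 and DO8_3, out of 9 libraries in all. The respiratory tree is the branched, water-filled organ of the body cavity through which sea cucumbers take up oxygen. The study asked how its miRNAs change when oxygen falls, and the DO8 animals were its baseline: they were kept for 3 days in seawater with a dissolved oxygen of 8 mg/L, with RNA of 3 animals mixed for each library. The labels name no strain, sex or age, one label speaks of an individual tree where the design text speaks of pools, and every SD below is the spread between pools (n = 3), not between animals. Entries were chosen by a single rule, a value above 0 in all 3 DO8 libraries, which 78 of the 475 entries of the deposited tables met. Of these, 76 were known miRNAs, matched by the authors to miRNAs of other animals, and 2 were predicted from hairpins. No comparison with the libraries at lower oxygen was made.

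A miRNA is cut from an RNA hairpin, and either of its arms, the 5p arm or the 3p arm, can yield the mature strand that is loaded into an Argonaute protein, while the opposite strand is mostly degraded. Bases 2 to 8 of the mature strand, the seed, do most of the pairing with target mRNAs, so miRNAs with the same seed are taken as a family. Many families are shared by many bilaterian animals, and some of them are known from particular tissues of several animals, such as miR-1 and miR-133 in muscle or miR-124 in neurons. In echinoderms, the let-7, miR-10, miR-71 and miR-92 families are well known, together with families that miRBase holds only from echinoderms and acorn worms.

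The sequences below are the 10 entries with the largest shares, shown because they carried nearly all of the signal. They are written as in the deposited tables, 5′ to 3′ with T for U, and capitals mark the seed. The prefix Aja- stands for the species and is left out afterwards. These names differ in places from those in the paper of the study. It prints the DO8 means of miR-10 and miR-125 under the names miR-10-5p and miR-125-5p. Those of miR-31a-5p and let-7a stand there as miR-31-5p and let-7a-5p.
Aja-miR-10: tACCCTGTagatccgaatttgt
Aja-let-7-5p: tGAGGTAGtaggttatatagtt
Aja-miR-125: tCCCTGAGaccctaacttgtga
Aja-miR-92a: tATTGCACttgtcccggcctat
Aja-miR-71-5p: tGAAAGACatgggtagtgaga
Aja-miR-200-3p: tAATACTGtctggtgatgatg
Aja-miR-184-3p: tGGACGGAgaactgataagg
Aja-miR-2011-3p: cCAAGGTGtgctagtgatgaca
Aja-miR-92b-1: tATTGCACttgacccggcctgc
Aja-miR-1a-3p: tGGAATGTaaagaagtatgtgt
All but miR-2011-3p began with T, and miR-92a and miR-92b-1 had the same seed.

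The deposited values are a signal, read counts multiplied by 1 factor per library. They summed to 3420135 in DO8_1, 3037641 in DO8_2 and 2718921 in DO8_3, which corresponded to 5720697, 5464012 and 4681523 miRNA reads when the worth of 1 read was worked out from the steps between values. The mapping statistics of the study list more miRNA reads than this, and with more reads the counting errors below would be smaller. The libraries listed 87, 100 and 101 entries above 0. The 78 entries present in all 3 carried 99.999%, 99.9968% and 99.9973% of the values, and no other entry exceeded 16.8 in any DO8 library. Because a share within a library does not depend on the factor, shares are used below, in % or in ppm, parts per 1000000 of the library's miRNA total. A share is a portion of library reads, not of molecules in the tissue, and in bulk tissue a miRNA made by fewer cells and a miRNA with fewer copies per cell cannot be told apart.

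The profile was dominated by miR-10, a miRNA of the Hox gene clusters. It had values of 1950688 in DO8_1, 1704707 in DO8_2 and 1188885 in DO8_3, or 57.0%, 56.1% and 43.7% of the total (52.3% ± 7.43, SD, n = 3). DO8_3 was thus the low library, and without it the mean share was 56.6%. miR-10 exceeded the next entry, let-7-5p, 5.27-fold on average and was first in every library. No entry named miR-100, a relative of miR-10 that lies beside let-7 in many animals, was listed in DO8, and of its close relative miR-99 there were traces in 1 or 2 libraries, miR-99-5p with values of 5.003 in DO8_2 and 3.48 in DO8_3 and miR-99b with 15.01 in DO8_2.

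let-7-5p, which controls the timing of development, took 10.5%, 8.05% and 11.2% in DO8_1, DO8_2 and DO8_3 (9.93% ± 1.67). miR-125, the relative of lin-4 that is often encoded beside let-7, took 8.97%, 9.16% and 10.7% (9.61% ± 0.953). Their ranges overlapped and their order was reversed in DO8_2, so these pools did not separate them. miR-92a, of an ancient family that includes members of the mammalian miR-17-92 cluster, followed with 4.65%, 5.93% and 8.94% (6.51% ± 2.20) and was below miR-125 in all 3 libraries.

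miR-71-5p, of a family that invertebrates hold and vertebrates have lost, took 3.46%, 3.33% and 4.64% (3.81% ± 0.719). miR-200-3p, whose relatives maintain epithelia in mammals, took 2.31%, 3.52% and 4.48% (3.43% ± 1.09), lowest in DO8_1 and highest in DO8_3. miR-184-3p, known from the fly ovary and the vertebrate lens and cornea, took 2.78%, 2.24% and 2.6995% (2.58% ± 0.290). The ranges of these neighbours overlapped. The same held for miR-2011-3p at 2.08%, 2.32% and 2.69% (2.36% ± 0.306), miR-92b-1 at 1.75%, 2.14% and 2.53%, and the muscle miRNA miR-1a-3p at 1.70%, 1.54% and 2.23%, although these 3 kept their order in every library.

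**Figure D1:**
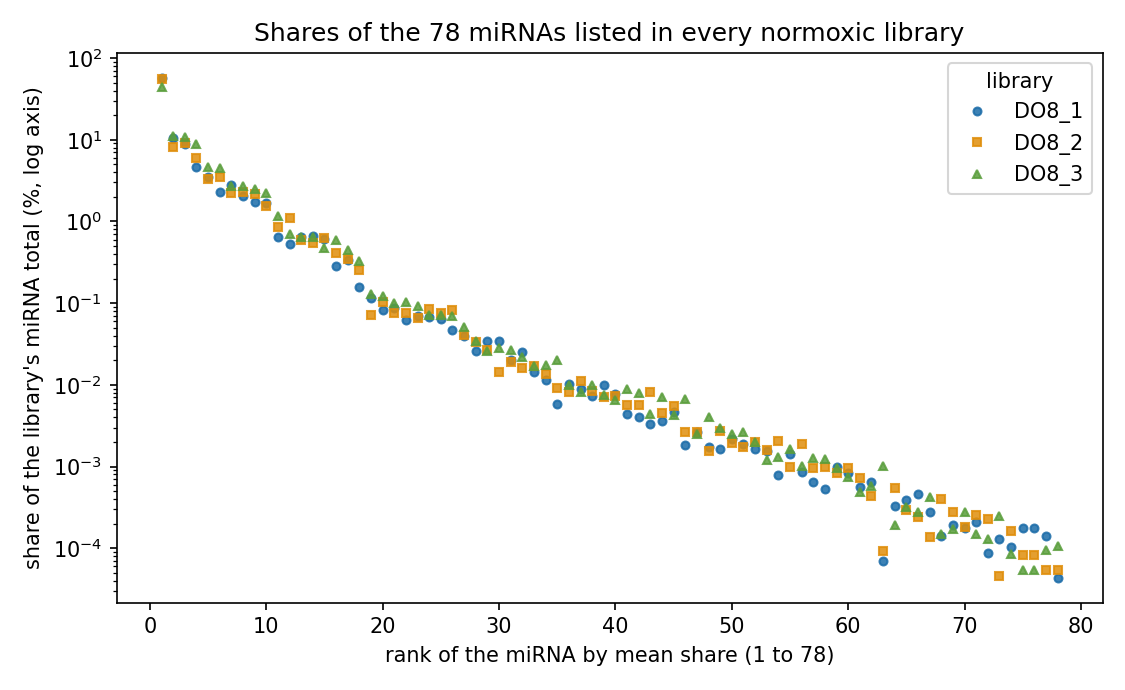
Share of the library's miRNA total (%, log axis) against rank by mean share for the 78 miRNAs, with 1 symbol per library. The first rank, miR-10, stands at 43.7% to 57.0%, and the shares then fall over about the whole range of the axis, with the 3 libraries farther apart among the rarest entries.

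Below these, 10 entries held between 0.1% and 1% each. miR-375-3p, which is found in pancreatic islets and secretory cells of vertebrates, had 0.535% in DO8_1, 1.096% in DO8_2 and 0.708% in DO8_3, with DO8_2 above both others. Shares of 0.637%, 0.590% and 0.646% were found for miR-2012, of 0.663%, 0.538% and 0.641% for miR-2004-3p, and of 0.617%, 0.620% and 0.480% for miR-2006-5p, all 3 from families of echinoderms and acorn worms. miR-92-3p had 0.652%, 0.857% and 1.15%, and miR-92a-1 had 0.287%, 0.416% and 0.596%. Both were lowest in DO8_1 and highest in DO8_3, as miR-92a was. miR-31a-5p, of a family with a role in skeleton formation of sea urchin embryos, had 0.338%, 0.347% and 0.447%, and miR-133-3p, a partner of miR-1 in muscle, had 0.158%, 0.254% and 0.333%. The last entries of the first 20 were miR-2010-3p at 0.116%, 0.0711% and 0.129%, and let-7b-3p, from the other arm of the let-7 hairpin, at 0.0818%, 0.104% and 0.124%. Among the 19 pairs of neighbours in this order, 8 kept their order in all 3 libraries, and 6 also had ranges that did not overlap.

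The signal was concentrated in few entries. The first 5 held 84.6%, 82.8% and 79.3% of the values in DO8_1, DO8_2 and DO8_3, and the first 20 held 99.3%, 99.3% and 99.1%. A share of 90% was reached with 8, 8 and 9 entries. The number of equally abundant miRNAs that would give the same Shannon entropy was 5.54, 5.89 and 7.78, so DO8_3 was the most even library. At the other end, 21 entries held 0.001% to 0.01% each and 22 held less than 0.001% each, which added up to 0.00814% on average.

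Grouped by the number in their names, the 78 entries fell into 44 families, 9 of which exceeded 1% of the total, and the first 10 held 96.8%. miR-10, with a single entry, was first in each library. let-7 with 4 entries (10.6%, 8.16% and 11.4%, mean 10.03% ± 1.67), miR-92 with 10 entries (7.37%, 9.37% and 13.2%, mean 9.99% ± 2.99) and miR-125 with 2 entries (8.97%, 9.16% and 10.7%, mean 9.62% ± 0.953) came next with overlapping ranges. The place of miR-92 among these depended on the library: its rank was 4 in DO8_1 and 2 in DO8_2 and DO8_3. Then came miR-71 (3.55%, 3.41% and 4.74%), miR-200 (2.31%, 3.52% and 4.48%), miR-184 (2.78%, 2.25% and 2.6998%), miR-2011 and miR-1. By seed alone, the 78 entries formed 54 sets, again with 9 above 1%. The seed ATTGCAC was shared by 10 entries named miR-92, miR-235 or miR-313, which together took 9.98% ± 2.99.

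**Figure D2:**
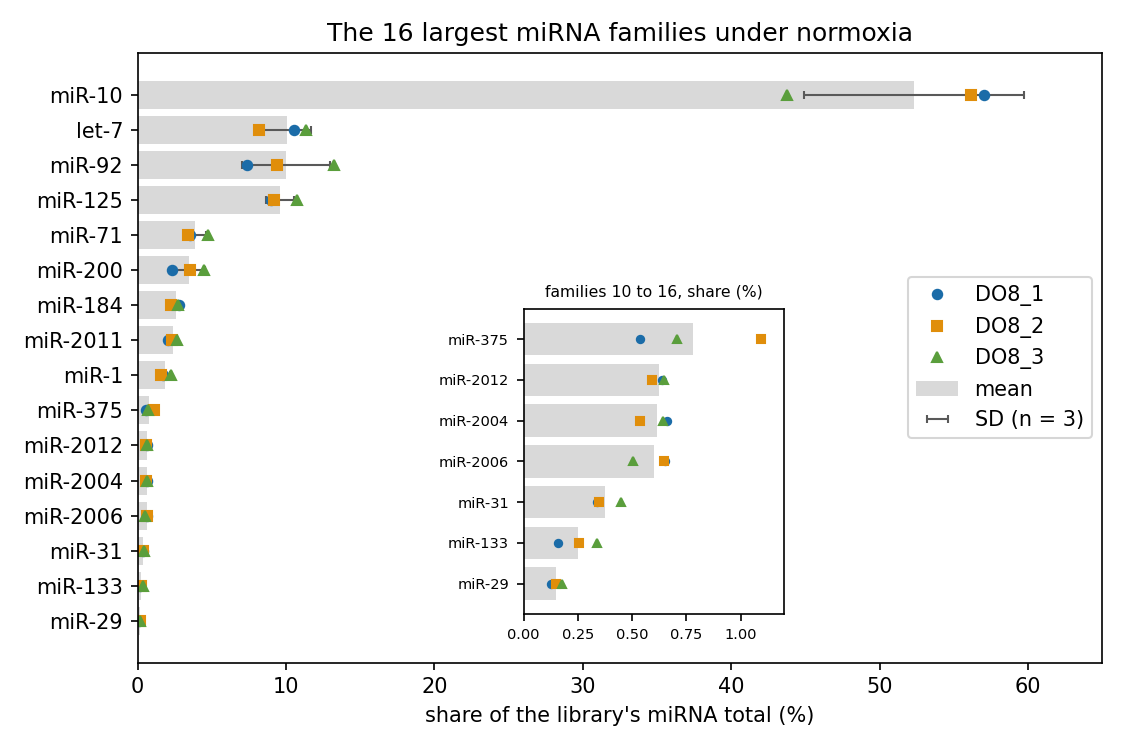
Share of the library's miRNA total (%) for the 16 largest families, with bars for the mean, symbols for the 3 libraries and error bars for the SD, and an enlarged panel for families 10 to 16 (means and libraries). The symbols of let-7, miR-92 and miR-125 overlap between 7.37% and 13.2%, and miR-375 in DO8_2 (1.096%) lies above its other libraries.

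The families were also read by lists, of which the marker lists rest on tissues of other animals. None of the lists holds a marker of the respiratory tree itself, so the tissue label was not checked directly. Families shared by bilaterian animals (24 of 37 families listed, 50 entries) took 95.7%, 95.7% and 95.2%. The Hox and let-7 cluster families let-7, miR-10 and miR-125 took 71.9% ± 5.54. Of 14 families of echinoderms and acorn worms, 10 were present with 13 entries and took 4.24%, 4.28% and 4.74% (4.42% ± 0.274), of which miR-2011 made up the largest part. Of 6 families that vertebrates have lost, miR-71, miR-252 and miR-278 were listed in all 3 libraries and took 3.97% ± 0.731, with miR-71 alone at 3.90%. These are also counted among the families shared by bilaterian animals.

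Muscle families were present in every pool. miR-1 and miR-133 together took 1.86%, 1.80% and 2.57% (2.08% ± 0.427), while miR-206, a relative of miR-1 known from vertebrates, was listed in DO8_2 alone with a value of 0.741. The list of ciliary, sensory and epithelial families had 4 of 13 families and took 2.66%, 3.88% and 4.94% (3.82% ± 1.14). Most of this was miR-200-3p, and miR-31a-5p was next. miR-34, which acts in the multiciliated cells of vertebrates, had 73.6, 83.3 and 100 ppm, and miR-96-5p, known from sensory hair cells, had 8.57, 18.9 and 10.04 ppm. miR-375 was the only 1 of 6 secretory and digestive families.

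Nervous system families were scarce but found in all 3 libraries. Of 7 families, 5 were found, and they took 0.0698%, 0.0627% and 0.0680% (0.0668% ± 0.00369). miR-9-5p, which acts in neural progenitors of vertebrates, had 255, 161 and 216 ppm, miR-137 had 113, 135 and 177, and the 23 nt form of miR-124 had 88.5, 111 and 81.5. miR-7-5p, abundant in neurosecretory cells, had 76.4, 72.3 and 65.8 ppm, and miR-153-3p had 16.6, 19.8 and 20.1. miR-219 and miR-128 were listed at 0 in all 3 libraries. The summed level of the list varied by 5.52% between pools (coefficient of variation), against 20.6% for muscle and 29.8% for the epithelial list. This order depends on miR-10 in the total: without it the nervous system list varied by 14.7% and muscle by 5.26%.

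Of 11 families of vertebrate blood and liver, none was listed in all 3 libraries. miR-126, miR-142, miR-148, miR-21 and miR-451 each appeared in 1 or 2 libraries, with miR-451a at a value of 12.2 in DO8_2 as the highest of them. Of 6 hypoxia families known from other animals, miR-200 and miR-210 were listed in all 3 libraries. miR-21 was listed in DO8_2 and DO8_3 only, and miR-199, miR-23 and miR-181 in no DO8 library. miR-210-3p, induced by low oxygen in mammals, had 340, 144 and 286 ppm in these normoxic pools, lowest in DO8_2.

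Where a hairpin left both arms in the libraries, the ratio of the arms was measured within each library. For this purpose 46 entries had the arm in their name, 22 were given it from an overlapping named entry and 10, miR-10 among them, had none. Of 36 families with an arm, 28 had 1 arm only (9 the 5p arm, 19 the 3p arm) and 8 had entries for both, in miR-2008 with no arm in the name of the second entry. For 5 of the 8 the sequences paired over 15 to 18 bases when folded on each other, as the strands of a hairpin do. These pairs are shown with the seed in capitals, the 5p entry first.
Aja-let-7-5p: tGAGGTAGtaggttatatagtt
Aja-let-7b-3p: cTATACAAcctgctagctttcc
Aja-miR-2006-5p: cATCGCCAccaagtgtacttca
Aja-miR-2006-3p: gAGCACACttggtagcggtg
Aja-miR-9-5p: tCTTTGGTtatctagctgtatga
Aja-miR-9-3p: tAAAGCTAggttaccaaagata
Aja-miR-2008-5p: cGTATTAAcaatggggctgatg
Aja-miR-2008: tCAGCCTCgctgtcaatacga
Aja-miR-133a-5p: aGCTGGTAaacgggaaccaaat
Aja-miR-133-3p: tTTGGTCCccttcaaccagccgt
Their predicted pairing energies ran from -24.4 kcal/mol (miR-2006) to -20.6 kcal/mol (let-7). At the 3′ end of the 3p strand, 2 bases stayed unpaired in let-7 and miR-133, 1 in miR-9, and 0 in miR-2006 and miR-2008. At the 3′ end of the 5p strand, 5 bases stayed unpaired in miR-9, 1 in let-7, miR-2006 and miR-2008, and 0 in miR-133.

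The strongest preference for the 5p arm was that of let-7. Its 5p entries had summed values of 358631, 244619 and 305940, and let-7b-3p had 2796, 3164 and 3368, a log2 ratio of 5p over 3p of 7.003, 6.27 and 6.51 (6.59 ± 0.37), or 128-fold, 77.3-fold and 90.8-fold. The 2 arms did not follow each other, since the 5p arm was lowest in DO8_2 while the 3p arm was lowest in DO8_1. miR-2006, a family of echinoderms and acorn worms, also favoured the 5p arm, 17.9-fold, 23.5-fold and 18.4-fold (log2 4.30 ± 0.22). miR-9 had the least difference between arms, with 874, 490 and 588 for the 5p arm and 344, 217 and 206 for the 3p arm, a ratio of 2.54, 2.26 and 2.85 (log2 1.34 ± 0.17).

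In miR-133 the 3p arm prevailed. miR-133a-5p had values of 56.2, 81.7 and 80.1, and the 3p entries had 5417, 7733 and 9078, which put the 3p arm 96.4-fold, 94.6-fold and 113-fold higher (log2 of 5p over 3p -6.66 ± 0.14). For miR-2008 the entry without an arm in its name pairs with miR-2008-5p and was taken as the 3p strand. It was 5.81-fold, 5.87-fold and 3.88-fold higher than the 5p entry (log2 of 5p over 3p -2.35 ± 0.34), with the smallest difference in DO8_3. All 5 families kept the side of their preference in every library. With 3 pools no test was run on these ratios.

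**Figure D3:**
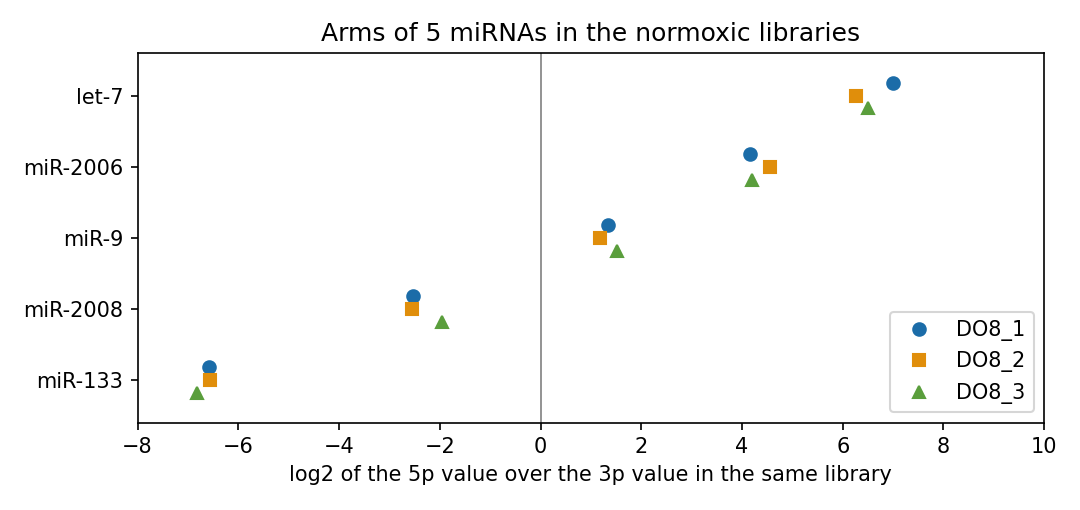
Log2 of the 5p value over the 3p value in the same library for 5 families whose arm sequences pair, with 1 symbol per library and a line at equal arms. let-7 and miR-133 lie farthest from the line, at means of 6.59 and -6.66, and miR-9 lies closest, at 1.34.

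The remaining 3 families named for both arms had sequences that did not look like strands of a hairpin. miR-6240-5p and miR-6240-3p overlapped by 20 bases on the same strand, shifted by 1 base, and miR-6236-5p and miR-6236-3p overlapped by 10 bases. miR-153-1-p5, a run of CT repeats with a value of 2.32 to 5.003, paired with miR-153-3p over 8 bases only. Their ratios are therefore not given as arm ratios. Among the 28 families with 1 arm, an entry for the opposite arm stood in the tables only for miR-2478, with a value of 1.74 in DO8_3. Whether strands absent from the tables were absent from the reads was not tested, since reads were assigned to a list of miRNAs from other animals.

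Several names could stand for forms of a single miRNA. The authors summed reads with up to 2 mismatches onto the most expressed miRNA of each family, so a leading form may include reads of others. Entries whose sequences overlapped by at least 16 bases with at most 2 mismatches were linked, which joined 45 of the 78 entries into 16 groups and left 33 alone. The 16 leading forms had 29 other forms, 28 of them scarcer and miR-9341-5p equal to its leading form. Of the 29, 12 had other ends and 17 had substituted bases. The seed was the same as in the leading form in 23 of these and differed in 6. Most of these forms were minor: 13 stood below 1 per 1000 of the leading form, and the leading form held over 90% of its group in 10 groups and over 99% in 6. The exception among abundant miRNAs was miR-92a, and its main forms are shown with the bases that differ from miR-92a in capitals.
Aja-miR-92a: tattgcacttgtcccggcctat
Aja-miR-92b-1: tattgcacttgAcccggcctGC
Aja-miR-92-3p: tattgcacttgtcccggccGGt
Aja-miR-92a-1: tattgcacttgtcccggcctTA
Aja-miR-92: attgcacttgtcccggcctGC
Aja-miR-313a: tattgcacttTtcccggccGG
Positions below are counted from 1 at the 5′ end of the leading form.

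Linked step by step, 12 entries joined the miR-92a group, of which miR-92a held 63.1%, 63.2% and 67.4%. miR-92b-1 (T12A, A21G and T22C) stood at 376, 361 and 283 per 1000 of miR-92a in DO8_1, DO8_2 and DO8_3, lowest in the library where miR-92a was highest. miR-92-3p (T20G and A21G) stood at 140, 145 and 129 per 1000, and miR-92a-1 (A21T and T22A) at 61.6, 70.2 and 66.7 per 1000. All 3 had the seed of miR-92a and differed from it mainly in the last 3 bases. The ratios of miR-92-3p and miR-92a-1 varied by 5.98% and 6.47% between pools, against 16.9% and 24.9% for their own values, while the opposite held for miR-92b-1, whose ratio varied by 14.8% and whose own value varied by 6.84%.

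The other miR-92 forms were rare. miR-92, which starts 1 base later and so has another seed, stood at 4.31, 3.25 and 2.98 per 1000, and miR-313a (G11T, T20G and A21G) at 1.26, 1.52 and 2.24, highest in DO8_3. miR-92d-3p (T20G) had 0.873, 0.947 and 0.891 per 1000. The remaining 5, miR-92c-3p, miR-92d, miR-92b, miR-92a-2 and miR-235a, had means of 0.0167 to 0.141 per 1000. Reads with up to 2 mismatches were assigned by the authors, and forms that differ from each other by so few bases may share reads, so the ratios of such close forms are uncertain.

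In contrast to miR-92, let-7 was nearly uniform. let-7a-5p (A15G), whose sequence is the let-7a of vertebrates, stood at 0.253, 0.329 and 0.225 per 1000 of let-7-5p, and let-7a (T18C) at 0.0951, 0.102 and 0.0845.
Aja-let-7-5p: tgaggtagtaggttatatagtt
Aja-let-7a-5p: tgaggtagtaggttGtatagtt
Aja-let-7a: tgaggtagtaggttataCagtt
Capitals again mark the bases that differ from the leading form. The share of let-7a-5p was 26.6, 26.4 and 25.3 ppm, a variation of 2.73% between pools, whereas its deposited values varied by 13.9% and its share without miR-10 in the total by 16.8%. Counting alone would give 8.55% on the inferred reads, so 2.73% is below what counting resolves.

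Forms with other ends differed mostly at the 3′ end. The 19 nt entry named miR-71 lacks the last 2 bases of miR-71-5p and stood at 25.4, 22.9 and 21.7 per 1000 of it, while a 21 nt entry of the same name (G12T) stood at 0.162, 0.220 and 0.106. The 20 nt miR-133 had 4.16, 3.75 and 3.85 per 1000 of miR-133-3p, the 18 nt miR-200 had 0.810, 0.494 and 0.592 per 1000 of miR-200-3p, and the 18 nt miR-1 had 0.0824, 0.261 and 0.0670 per 1000 of miR-1a-3p. miR-125-5p, which starts 3 bases later than miR-125 and so has another seed, had 0.240, 0.210 and 0.231 per 1000. In miR-71-5p, miR-133-3p, miR-200-3p, miR-1a-3p and miR-125 the longer form thus led.

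The end forms of miR-124 were closer to balance. The 21 nt miR-124-3p stood at 520, 491 and 518 per 1000 of the 23 nt miR-124, a ratio that varied by 3.14% between pools while the forms' own values varied by 18.7% and 20.6%. On the inferred reads, counting alone would give 6.38% and 4.56% for those values, so a ratio this even is below what counting resolves. The 2 forms may also share reads, since their inferred reads were not whole (263.5 and 506.5 in DO8_1).
Aja-miR-124: taaggcacgcggtgaatgccaat
Aja-miR-124-3p: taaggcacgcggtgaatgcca
In miR-2002, a family of echinoderms and acorn worms, the shorter form led: miR-2002a-3p, longer by 1 base, had 141, 118 and 164 per 1000 of miR-2002-3p. miR-252a-5p, shorter by 1 base, had 16.8, 24.8 and 18.7 per 1000 of miR-252a, and miR-193 (G21T and A22T) had 23.3, 18.6 and 16.7 per 1000 of miR-193-3p. miR-184 (G20T) had 0.166, 0.106 and 0.103 per 1000 of miR-184-3p. Over the 28 scarcer forms with a ratio that varied, the ratio to the leading form varied less between pools than the form's own value in 17, with a median of 20.02% against 24.5%. For the form's own value, counting alone would give a median of 14.4% over all 29 other forms.

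**Figure D4:**
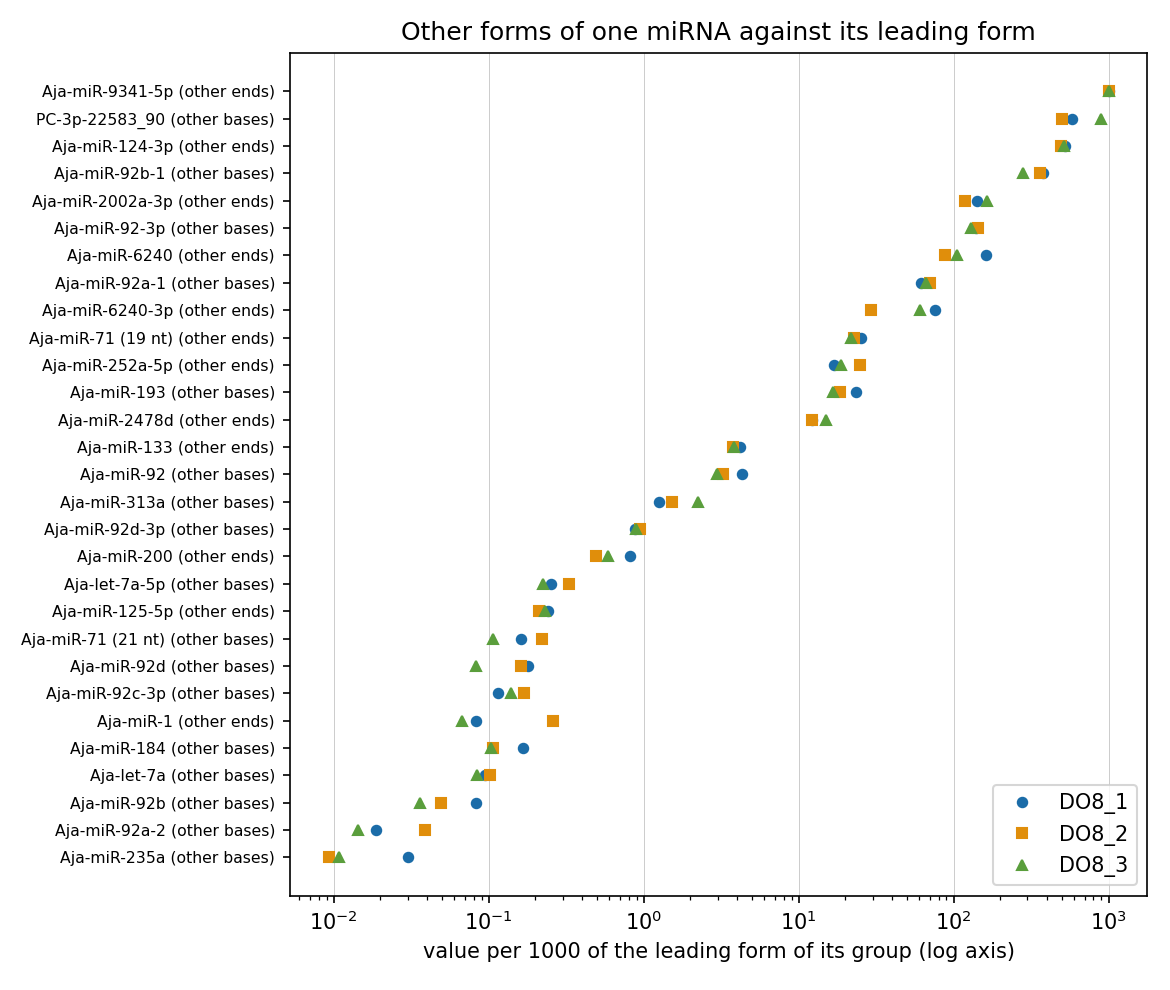
Value per 1000 of the leading form of its group (log axis) for 29 other forms, ordered by mean, with 1 symbol per library and the kind of difference in each name. Most forms lie within a narrow band over the 3 libraries, as at 491 to 520 for miR-124-3p, and miR-9341-5p lies at 1000 in each library.

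A small set of entries was on a list of names taken to resemble fragments of other RNAs. The resemblance was not checked against sequences of such RNAs. Of the 9 families on the list, 6 were present, with 11 entries that took 0.00841%, 0.00964% and 0.0201%, highest in DO8_3. Sequences are shown for 3 of them that end in CACCA, the motif in capitals, where CCA is also the 3′ end of mature tRNAs. The 2 predicted entries, which are not on the list and lack the motif, are shown after them.
Aja-miR-2478b-3p: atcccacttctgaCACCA
Aja-miR-1260: atcccaccgctgcCACCA
Aja-miR-7977: ttcccggccaacgCACCA
PC-3p-13994_163: aacggagtgttagctcag
PC-3p-22583_90: taaggagtgttagctcag
Of the 78 entries, 4 ended in CCA, miR-124-3p among them. CACCA was held anywhere by 7, among them miR-2006-5p, miR-29a-3p and miR-29b-3p, which are not on the list. Of the 44 entries listed in only 1 or 2 DO8 libraries, 6 ended in CCA and 7 held CACCA. Both predicted entries share their last 15 bases and stood at 3.32, 5.49 and 1.92 and at 1.92, 2.75 and 1.71 ppm. miR-2478b-3p was the most abundant entry of the list, at 35.9, 44.8 and 70.8 ppm, with miR-2478d, shifted by 1 base, at 12.2, 12.2 and 15.1 per 1000 of it. miR-9341 and miR-9341-5p, which differ by 3 bases at the 3′ end, had the same value in each library, 5.98, 2.502 and 1.45. miR-6236-5p had 18.2, 26.7 and 66.2 ppm and miR-6240-5p had 17.4, 15.6 and 40.7, both highest in DO8_3. Whether these entries come from tRNA or rRNA that the authors' filter left in was not tested.

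The entries shared features that the choice did not use. Of the 78, 53 began with T (67.9%), and these carried 96.3% of the values, while 15 began with A, 8 with C and 2 with G. A first U is common in animal miRNAs, since Argonaute proteins bind it well. The 32 entries of 22 nt held 89.0% ± 1.96 of the values, the 16 entries of 21 nt held 7.97% and the 11 entries of 20 nt held 2.63%. Of the 44 entries listed in only 1 or 2 DO8 libraries, 25 (56.8%) began with T.

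The spread between pools was larger than counting would give. Over the 78 entries the coefficient of variation of the deposited values had a median of 22.9%, against 5.03% from counting alone. Among the 46 entries with a mean value of at least 100 it had a median of 18.4%, and in 41 of them it exceeded 3 times the counting part. Among the 12 entries with a mean under 10 the median was 46.9%, against 40.3% from counting. In none of those 12 did it exceed 3 times the counting part.

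The smallest variation among entries with a mean of at least 100 was that of miR-2011-3p, with values of 71027, 70492 and 73018 (1.86%). It was followed by miR-34 with 252, 253 and 272 (4.35%), miR-2007-5p with 495, 510 and 466 (4.55%), miR-125 with 306856, 278240 and 291164 (4.91%) and miR-2013-3p with 1365, 1253 and 1374 (5.09%). For miR-34, counting alone would give 4.73% on the inferred reads. The order depends on the scale, since the deposited values carry the authors' factor: as shares, miR-2011-3p varied by 13.0% and miR-125 by 9.91%, while miR-2012 varied by 4.81%. The largest variation was that of miR-6236-5p, with 62.2, 81.2 and 180 (58.7%), followed by miR-313a with 201, 274 and 544 (53.1%), miR-2005-5p with 114, 247 and 118 (47.3%), miR-210-3p with 1163, 438 and 778 (45.8%) and miR-375-3p with 18282, 33278 and 19262 (35.5%). In miR-6236-5p and miR-313a DO8_3 was the high library, in miR-2005-5p and miR-375-3p DO8_2, and in miR-210-3p DO8_1.

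**Figure D5:**
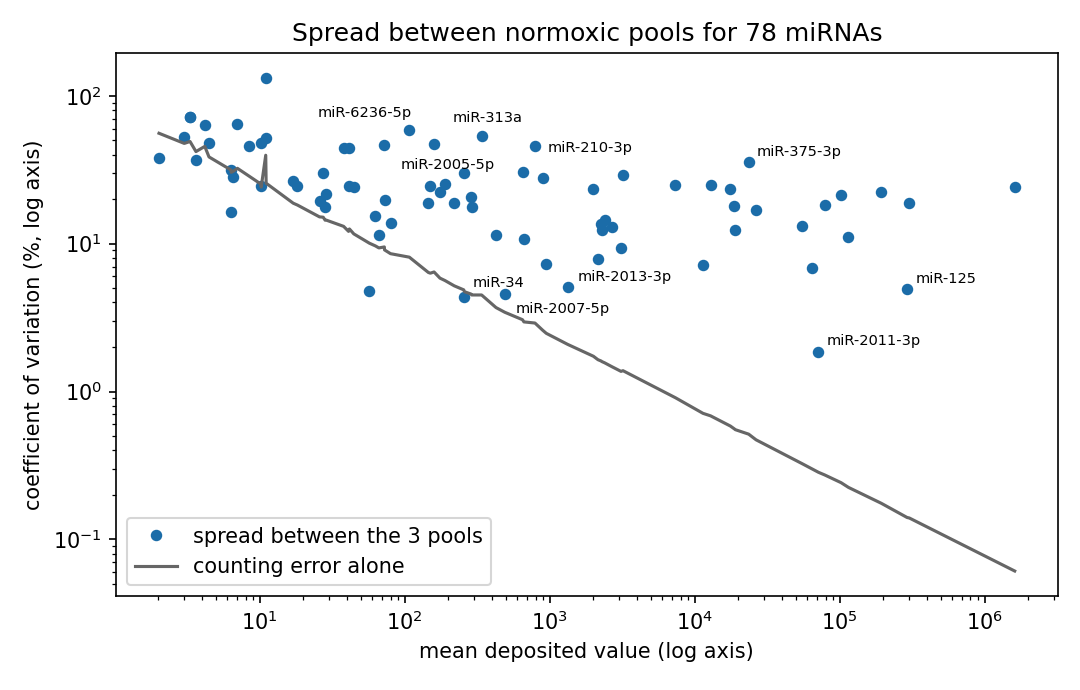
Coefficient of variation over the 3 pools (%, log axis) against mean deposited value (log axis) for 78 miRNAs, with a line for the variation from counting alone. Most entries above a mean of 100 lie well over the line, and miR-2011-3p (1.86%) and miR-125 (4.91%) are low among the abundant ones.

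Because shares add up to 100%, the lower miR-10 share of DO8_3 came with a higher summed share of the others there. Less miR-10 and more of the others cannot be told apart from shares. DO8_3 had the highest share in 42 of the 78 entries, against 17 for DO8_1 and 19 for DO8_2. With miR-10 left out of the total, the highest share lay in DO8_1 for 25, in DO8_2 for 28 and in DO8_3 for 24 of the other 77 entries. Some families then became even: miR-31 took 0.787%, 0.791% and 0.794% of the rest (coefficient of variation 0.438%, against 16.01% with miR-10 in the total), miR-71 took 8.25%, 7.77% and 8.42% (4.14%, against 18.7%), and the muscle list took 4.32%, 4.11% and 4.56% (5.26%, against 20.6%). For miR-31, counting alone would give 0.712% on the inferred reads. Other families stayed apart. miR-92 took 17.1%, 21.3% and 23.5% of the rest, still highest in DO8_3, miR-375 took 1.24%, 2.497% and 1.26%, still highest in DO8_2, and let-7 took 24.6%, 18.6% and 20.2%, lowest in DO8_2. The nervous system list became less even, at 0.162%, 0.143% and 0.121% (14.7%, against 5.52%).

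Between libraries, the log2 values of the 78 entries correlated at 0.989 to 0.992 (Pearson) and 0.986 to 0.989 (Spearman). This is a description across miRNAs, which share libraries and a wide range of levels. No pair of libraries agreed within counting noise, and none was counted as 1 sample. On the inferred reads, the chi-square per degree of freedom was 859 for DO8_1 and DO8_2, 3298 for DO8_1 and DO8_3, and 2376 for DO8_2 and DO8_3. This covers counting error only and treats PCR reads as independent molecules, so it does not tell separate pools from repeat libraries of the same RNA. Shares differed more than 2-fold in 12, 11 and 8 entries of these pairs, of which 3, 5 and 2 had a mean value of at least 100. These were miR-375-3p, miR-210-3p and miR-2005-5p between DO8_1 and DO8_2, miR-92a-1, miR-133-3p, miR-313a, miR-2008-5p and miR-6236-5p between DO8_1 and DO8_3, and miR-313a and miR-6236-5p between DO8_2 and DO8_3.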

How the data were processed

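Small RNAs of 16 to 30 nt from the respiratory tree were sequenced by the authors on an Illumina instrument. They removed reads under 18 nt and rRNA, tRNA, snRNA and snoRNA reads, and aligned the rest to animal miRNAs of miRBase 21.0 with up to 2 mismatches; further miRNAs were predicted with MIREAP. The submitters' processing notes name CASAVA 1.5. What the authors deposited is a signal: the reads of an entry times a factor fixed within a library. The formula they state, reads per 1000000 clean reads, cannot give sums of 2718921 to 3420135, so where the factor comes from stayed unknown. The worth of 1 read (0.556 to 0.598) was the largest step of which all predicted entries were whole multiples. Of the values, 65.5% to 68.0% were then whole reads (within 0.02 of a read) and 96.0% to 96.6% whole sixths, so they are not counts and no count model was fitted. The inferred reads served only for counting errors and for a chi-square between libraries.

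Entries were joined by name and sequence (475 entries, 186 known and 289 predicted). Shares, families, arms, linked forms (overlap of at least 16 bases, at most 2 mismatches) and coefficients of variation were computed in Python 3.11.15 with numpy 2.4.6, pandas 2.3.3 and scipy 1.17.1, drawn with matplotlib 3.10.9, and arms were paired with RNAduplex of ViennaRNA 2.7.2. The counting part of a coefficient of variation is the square root of the mean, over libraries, of 1 over the reads, and covers counting error only. The linking of forms, the counting part and the recovery of a known spread were tested on simulated data. The worth of 1 read, the families, the arms and their pairing were not. Since 1 group was described and a paired exact test over 3 pools cannot go below p = 0.25, no test was run. Values in each library are given for the 20 largest shares, entries of families with both arms, variant forms, entries on marker lists, and the 5 largest and 5 smallest variations among means of at least 100. Members and lists were chosen with earlier results of these data known. The other 6 libraries are not used here. Alternatives were other denominators, leaving out miR-10, families by seed, other rules for members, arms and forms, other measures of spread, and leaving out each library.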

Additional observations from a re-analysis of the deposited data

How the results depend on the processing

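Under settings other than leaving out a library, 55 of 66 values stayed within the spread between pools or within 1.5 times a count, 11 moved and 0 reversed. With miR-10 left out of the total, let-7-5p took 20.9%, miR-125 20.3%, the miR-92 family 20.7%, muscle families 4.33%, nervous system families 0.142%, ciliary, sensory and epithelial families 7.93%, families that vertebrates have lost 8.29%, families of echinoderms and acorn worms 9.35%, and the Hox and let-7 cluster families 41.4%, which follows from the smaller denominator. With no mismatch allowed between forms, 27 entries instead of 45 were in groups and miR-92a made up 100% of its own group, by the construction of that setting. Leaving out each library in turn gave 69 values, of which none was labelled as moved. For shares and arm ratios this was fixed in advance, because leaving out 1 of 3 values cannot shift their mean by its SD. Counts, ranks and the median variation were allowed a 1.5-fold change. The ranges were 79 to 83 members, 49.9% to 56.6% for miR-10, 9.27% to 10.9% for let-7-5p, and 8.37% to 11.3% for the miR-92 family. The rank of that family ran from 2 to 4. The median coefficient of variation ran from 15.6% to 19.6%, against 22.9% with all 3 libraries. A minimum value of 10 left 62 members, and listing in at least 2 libraries gave 88. No paired analysis was possible because only 1 group was described and no result came from a test. A value at 0 allows up to 3 reads, a value of 1.67 to 1.79, so absence below that is not shown.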

Other observations

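Outside the 78 entries, 34 entries were listed in 1 DO8 library, 10 in 2, and 353 in none. The highest of the 44 partly listed entries was a predicted one, PC-3p-13527_171, with values of 16.7 in DO8_1 and 16.8 in DO8_3 and 0 in DO8_2. DO8_2 alone listed miR-30c-5p at 16.1, miR-99b at 15.01 and miR-451a at 12.2, which are names of families known from vertebrates, together with let-7d-5p at 1.67, let-7i-5p at 1.39 and miR-26a-5p at 5.84. DO8_3 alone listed miR-148a at 5.81, miR-143-3p at 2.90 and miR-142-3p at 2.61. Their source was not tested.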
